A study of Mus musculus with 28 samples.

Results

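The 35 genes followed here are markers of reactive astrocytes, measured in the cerebral cortex of mice with a conditional gene deletion in astrocytes (cKO) and of their controls (Ctrl). They were chosen by name and by no rule on the values measured here, but with earlier results of these data known. They are 11 pan-reactive genes, 12 genes of the A1 or neuroinflammation type and 12 genes of the A2 or ischemia type, out of 53342 gene identifiers per count table. Gfap and Vim, the usual filament genes of gliosis, were left out of the list and are given once as a reference.

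The cKO mice carried mGFAP-Cre and were loxP/loxP at the floxed gene, so that it is deleted where the murine GFAP promoter drives Cre. The Ctrl mice were sex-matched littermates, loxP/loxP or loxP/+ at that gene, given without the driver, and the strains were kept on C57BL/6J. Bulk RNA-Seq libraries came from 4 cKO and 4 Ctrl cortices at postnatal day 24 (P24) and from 4 and 4 at P17. Translating ribosome affinity purification (TRAP-Seq) was done at P24 in 3 cKO and 3 Ctrl mice in which mGFAP-Cre switched on the EGFP/Rpl10a fusion, a ribosomal protein with a GFP tag. RNA on the tagged ribosomes was pulled down with anti-GFP antibodies (IP), and a small share of the same supernatant was kept as Input. The TRAP-Seq Ctrl mice were also given as loxP/loxP or loxP/+; the tag needs Cre, and which Ctrl mice had which of these alleles beside it is not stated in the sources used here. Each library is 1 mouse, with an Input and an IP library from the same mouse.

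Reactive astrocytes are astrocytes that respond to injury, infection or disease of the nervous system by growing, building filaments and changing their secreted and surface proteins. The pan-reactive genes rise in many such settings, the A1 genes were defined after lipopolysaccharide and hold much of the interferon and antigen presentation machinery, and the A2 genes were defined after arterial occlusion and include cytokines, membrane and repair genes. Cytokines of the interleukin 6 family that act through the shared receptor gp130 and STAT3 are known inducers of several members.

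Values are CPM, read counts relative to the library total as scaled by TMM factors within each experiment, the ± values beside log2 fold changes are standard errors (SE), and the adjusted p-values come from edgeR's two-sided quasi-likelihood test with Benjamini–Hochberg adjustment over all genes tested. Gene positions are those of GENCODE M21 on GRCm38 (mm10). A gene was called upregulated or downregulated at an adjusted p under 0.05. Total counts were 8855488 to 14575306 per bulk library and 18433087 to 27242445 per TRAP-Seq library, and 3 counts, the smallest share taken as detectable, came to 0.202 to 0.339 CPM and 0.106 to 0.167 CPM. These floors cover counting error only. Some libraries stood apart. In P24 bulk cortex, cKO replicate 1 had the smallest rise of Vim, at 81.2 CPM where the other cKO mice had 259, 330.4 and 445. Vim is itself a gliosis gene, so fits without this mouse leave out the cKO mouse lowest in a gene of the same kind as the members. In TRAP-Seq, Input cKO replicate 1 had the highest summed blood markers, at 415 CPM where the other 5 Input libraries had 81.8 to 137. IP cKO replicate 2 had the highest summed microglia markers of the IP libraries, at 258 CPM where the others had 127 to 157. The summed markers of astrocytes that are not reactive were 8155 to 11590 CPM in the 6 IP libraries and 871 to 1522 CPM in the 6 Input libraries, and the 3 cKO Input libraries (1241 to 1522 CPM) all lay above the 3 Ctrl ones (871 to 995 CPM), with 7 of 9 markers positive and 1 called. Neuronal markers were still present in IP, at 2200 to 2666 CPM.

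Of the 35 members, 5 were upregulated in P24 bulk cortex and 0 downregulated, against 1.26% and 0.462% of all genes tested. They were S1pr3, Osmr, Ggta1, Cd109 and Emp1, and 30 members passed the filter on low counts. In whole tissue, fewer cells of a type and less RNA per cell cannot be told apart. In P17 bulk cortex 0 of 35 were called (26 tested), where 0.0943% of all genes were called; 5 members had an unadjusted p under 0.05, and neither DESeq2 nor edgeR's likelihood ratio test called any. In the IP fraction 14 of 35 were upregulated and 2 downregulated (32 tested), against 11.6% and 8.42% of all genes tested. In the Input fraction edgeR's quasi-likelihood test called 0 of 35 (28 tested), where 0.109% of all genes were called. There 8 members had an unadjusted p under 0.05. DESeq2 called 2 members and the likelihood ratio test 3, where they called 127 and 137 of 23828 genes. By class, the upregulated members in IP were 6 of the 11 pan-reactive genes, 2 of the 12 A1 genes and 6 of the 12 A2 genes, and both downregulated members were A1 genes. The median log2 fold changes in IP over the 9, 12 and 11 tested members of the pan-reactive, A1 and A2 classes were 1.54, −0.02 and 1.55, beside −0.02 over all 23864 genes tested. In P24 bulk cortex the 3 medians were 0.42, 0.04 and 0.75 over 9, 12 and 9 tested members, beside 0.00 over all genes. The filter on low counts removed Steap4 and Slc10a6 in all 4 comparisons, Cxcl10 and Ptx3 in both ages and in Input, B3gnt5 in both ages, Iigp1 and Tgm1 at P17 and in Input, Gbp2 and Ugt1a1 at P17, Lcn2 in IP and Cd109 in Input. It works on the group with the higher counts, so these medians do not stand for all members. The tested members ran from −0.24 (Lcn2) to 2.38 (Cd109) on the log2 scale in P24 bulk cortex, from −0.35 (Serpina3n) to 0.74 (Emp1) at P17, from −1.65 (Fbln5) to 3.67 (Hspb1) in IP and from −0.41 (B3gnt5) to 2.24 (Emp1) in Input. Positive values were held by 22 of 30, 13 of 26, 24 of 32 and 22 of 28 of them, in that order.

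**Figure D1:**
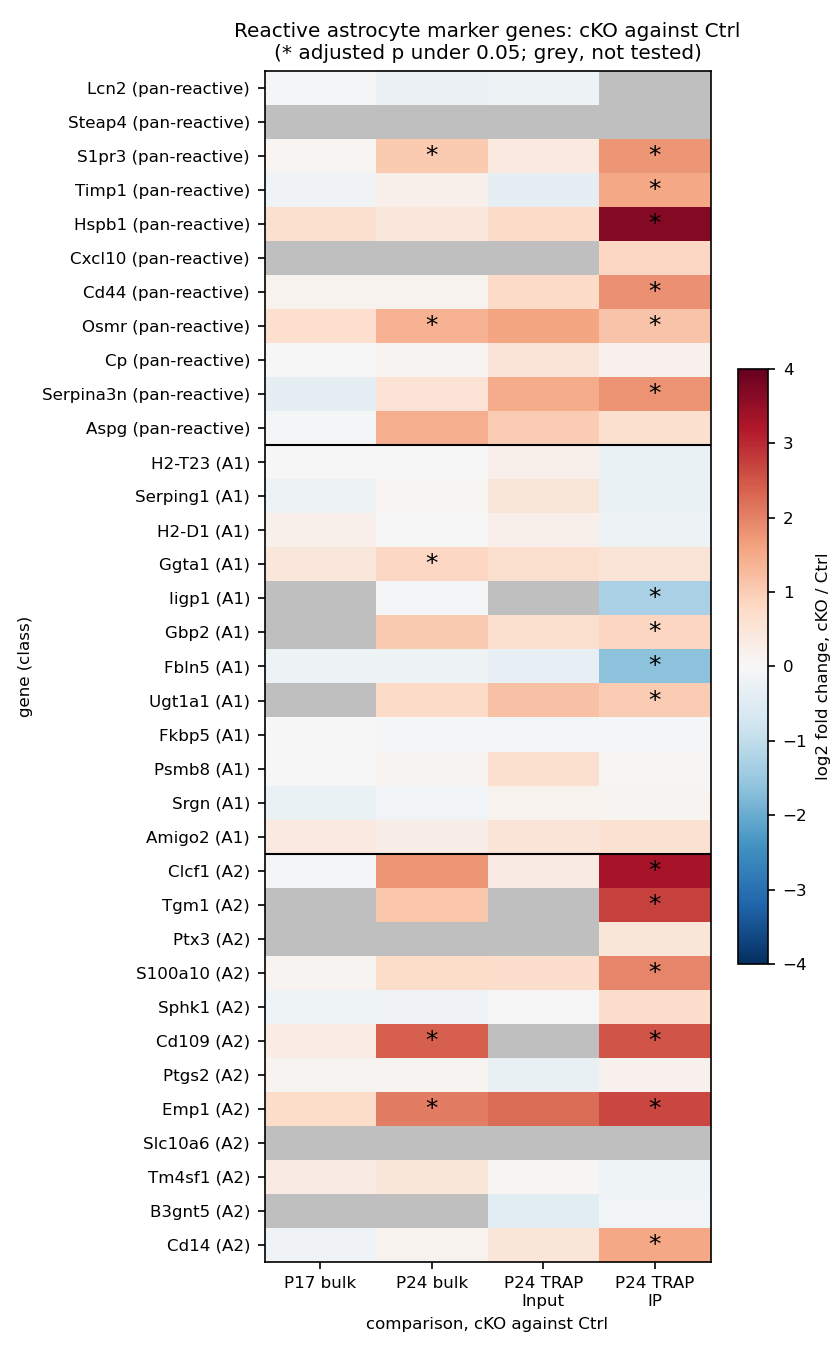
Log2 fold change of cKO against Ctrl (colour) for each member (vertical axis, grouped by class) in the 4 comparisons (horizontal axis); an asterisk marks an adjusted p under 0.05 and grey a member not tested. The called members are spread over the pan-reactive and A2 classes in IP, only 4 A1 members carry an asterisk there, and the P17 and Input columns carry none.

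The pan-reactive class had 2 called members in P24 bulk cortex, both cell surface receptors. Osmr (ENSMUSG00000022146, chr15:6813577-6874969, minus strand) encodes the oncostatin M receptor subunit, which pairs with gp130. Its P24 CPM were 3.81, 4.4, 3.29 and 3.92 in Ctrl mice and 8.6, 9.83, 9.36 and 12.3 in cKO mice. Every cKO mouse lay above every Ctrl mouse, cKO replicate 1 included, and the log2 fold change was 1.38 ± 0.14 (SE, edgeR adjusted p = 0.00037). At P17 the CPM were 3.23, 3.5, 2.42 and 5.77 in Ctrl and 5.15, 5.43, 6.01 and 6.95 in cKO mice, so the groups overlapped at 1 Ctrl mouse, and the log2 fold change of 0.67 ± 0.23 (SE, edgeR adjusted p = 0.943) did not pass. In the IP fraction Osmr went from 3.04, 3.43 and 3.12 to 5.88, 8.01 and 7.25 CPM. Again no cKO library reached down to the Ctrl range, with a log2 fold change of 1.15 ± 0.17 (SE, edgeR adjusted p = 0.00129). In Input it had 0.548, 0.50 and 0.257 CPM in Ctrl and 1.11, 1.36 and 1.48 in cKO mice, for a log2 fold change of 1.58 ± 0.36 (SE, edgeR adjusted p = 0.36). The Input groups did not overlap either, but the value did not pass the test over all genes.

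S1pr3 (ENSMUSG00000067586, chr13:51408639-51422797, plus strand) encodes a receptor for sphingosine-1-phosphate. Its P24 bulk CPM were 8.94, 9.24, 9.5 and 8.57 in Ctrl mice and 9.61, 22.1, 17.6 and 25.3 in cKO mice. Replicate 1 was just above the highest Ctrl mouse and the other 3 cKO mice were well above it, and the log2 fold change was 1.04 ± 0.23 (SE, edgeR adjusted p = 0.046). Leaving out any 1 of the other 7 mice ended this call (edgeR adjusted p = 0.107 to 0.147). P17 levels lay close together, with 10.4, 9.75, 9.91 and 9.73 in Ctrl and 10.7, 9.56, 10.9 and 10.9 in cKO mice, and a difference of 0.08 ± 0.10 (SE, edgeR adjusted p = 1.0), whose 95% interval was −0.12 to 0.29. On tagged ribosomes S1pr3 rose from 4.44, 3.89 and 4.52 to 10.4, 18.4 and 15 CPM, a log2 fold change of 1.78 ± 0.20 (SE, edgeR adjusted p = 0.00031). In Input the groups overlapped, with 3.49 to 4.89 CPM in Ctrl and 4.09 to 6.72 in cKO mice.

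The largest difference of cKO from Ctrl of any member was that of Hspb1 (ENSMUSG00000004951, chr5:135887919-135889563, plus strand), a small heat shock protein that binds unfolded proteins and filaments. In the IP libraries it went from 1.35, 0.641 and 1.29 CPM in Ctrl to 8.44, 21 and 12.4 CPM in cKO mice. The lowest cKO library was far above the highest Ctrl library, and the log2 fold change was 3.67 ± 0.36 (SE, edgeR adjusted p = 0.000142). In bulk cortex it had 3.23, 2.64, 2.54 and 2.98 CPM in Ctrl and 2.96, 4.52, 4.02 and 3.85 in cKO mice at P24, a log2 fold change of 0.42 ± 0.16 (SE, edgeR adjusted p = 0.289), and 0.64 ± 0.23 at P17. The difference in Input was 0.76 ± 0.33, with 1.81, 2.22 and 1.28 CPM in Ctrl and 3.73, 3.4 and 1.91 in cKO mice. None of these 3 passed the test.

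Cd44, the hyaluronan receptor, showed a change in IP and not in bulk cortex. The IP libraries had 8.27, 12 and 8.62 CPM in Ctrl and 19.3, 55.6 and 26.9 in cKO mice, for a log2 fold change of 1.82 ± 0.32 (SE, edgeR adjusted p = 0.00333). Replicate 2 was the highest of the cKO libraries, and without it the log2 fold change was 1.28 (edgeR adjusted p = 0.00433). In bulk cortex at P24 Ctrl mice ran from 80 to 150.3 CPM and cKO mice from 69.9 to 149.9, and the log2 fold change of 0.13 ± 0.23 had a 95% interval of −0.37 to 0.63. Input had 9.69, 9.23 and 8.37 CPM in Ctrl and 24.1, 12.7 and 10 in cKO mice, where the library with the high blood markers was the highest.

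Serpina3n, a secreted inhibitor of serine proteases, was tight in the Ctrl IP libraries at 11.1, 10.6 and 10.4 CPM and reached 21.6, 50.7 and 39.5 in cKO mice. The log2 fold change was 1.81 ± 0.24 (SE, edgeR adjusted p = 0.000841). Input showed the same order at lower levels, from 2.78, 3.28 and 2.36 to 5.11, 10.7 and 7.69 CPM, a difference of 1.48 ± 0.29 (SE, edgeR adjusted p = 0.227) that did not pass. At P24 the Ctrl mice of the bulk libraries spread over 6.23, 40.9, 14.3 and 31 CPM, the cKO mice had 14.1, 39, 50.8 and 34.3, and the groups overlapped. At P17 all 4 cKO mice (8.55, 6.95, 7.94 and 8.61 CPM) lay below all 4 Ctrl mice (12.2, 10.8, 9.03 and 8.71 CPM), but the log2 fold change of −0.35 ± 0.13 did not pass (edgeR adjusted p = 1.0). The share of all genes whose cKO mice all lay below all Ctrl mice at P17 was not counted. Serpina3n belongs to a cluster of similar genes, and how the authors' counting split reads among them is not stated.

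Timp1, an inhibitor of matrix metalloproteinases, had 1.39, 0.868 and 1.6 CPM in the Ctrl IP libraries and 2.17, 7.02 and 2.06 in the cKO libraries. Its log2 fold change of 1.54 ± 0.45 (SE, edgeR adjusted p = 0.0344) rested largely on cKO replicate 2, and without that library it was 0.74 (edgeR adjusted p = 0.148). The call also ended without any 1 of the Ctrl IP libraries (edgeR adjusted p = 0.0608 to 0.108). In Input, Timp1 was higher than in IP in both genotypes, with 8.98, 9.9 and 9.35 CPM in Ctrl and 3.29, 8.59 and 9.49 in cKO mice. The low value is again Input cKO replicate 1.

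Aspg, an asparaginase, missed the threshold by little in 2 experiments. In bulk cortex at P24 it went from 3.15, 3.01, 3.59 and 2.62 to 4.17, 7.38, 15.2 and 6.84 CPM, without overlap, a log2 fold change of 1.44 ± 0.34 (SE, edgeR adjusted p = 0.0597), which passed without cKO replicate 1 (1.67, edgeR adjusted p = 0.00246). In IP the difference was 0.64 ± 0.21 (SE, edgeR adjusted p = 0.0549). Cp, the copper-carrying ferroxidase ceruloplasmin, had 0.12 ± 0.11 in P24 bulk cortex and 0.18 ± 0.18 in IP, with intervals of −0.12 to 0.36 and −0.22 to 0.58. The interferon-induced chemokine Cxcl10 was tested in IP, with 0.338 to 0.83 CPM in Ctrl and 0.737 to 1.25 in cKO mice (0.83 ± 0.38, edgeR adjusted p = 0.153), and its bulk levels were 0 to 0.872 CPM. Lcn2, a secreted lipocalin that binds siderophores and a frequently used marker of reactive astrocytes, stayed low, with 0.449 to 1.53 CPM in Ctrl and 0.269 to 1.64 in cKO bulk cortex at P24, and 0 to 0.626 CPM in the IP libraries. Steap4, a metalloreductase, was too low to be tested in any comparison, with 0 to 0.147 CPM in Ctrl and 0.269 to 0.926 in cKO bulk cortex at P24.

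**Figure D2:**
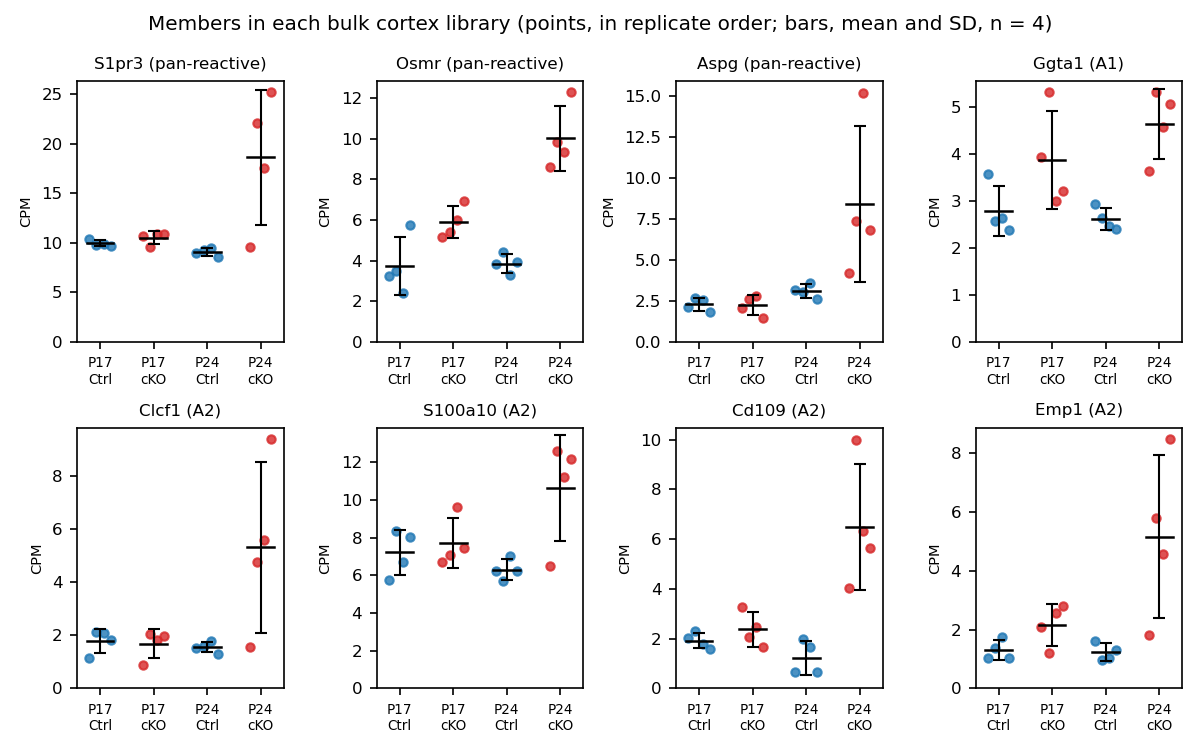
CPM (vertical axis, from 0) of 8 members in every bulk cortex library of P17 and P24 Ctrl (blue) and cKO (red) mice; points are mice in replicate order, and black bars the mean and SD (n = 4). At P24 the cKO mice lie above the Ctrl mice for S1pr3, Osmr, Aspg, Ggta1, Cd109 and Emp1, and replicate 1, the leftmost red point, is the lowest of the cKO mice in each panel.

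The A1 class had 1 called member in P24 bulk cortex. Ggta1 (ENSMUSG00000035778, chr2:35400179-35463231, minus strand) makes the alpha-galactose epitope on glycoproteins and glycolipids. Its P24 bulk CPM were 2.93, 2.64, 2.47 and 2.4 in Ctrl and 3.63, 5.31, 4.58 and 5.06 in cKO mice. The groups did not overlap, and the log2 fold change was 0.82 ± 0.16 (SE, edgeR adjusted p = 0.0211), a call that ended without any 1 of 6 of the 8 mice (edgeR adjusted p = 0.0615 to 0.0807). In P17 bulk cortex the values were 3.58, 2.58, 2.64 and 2.38 in Ctrl and 3.94, 5.32, 3.0 and 3.21 in cKO mice, which overlapped (0.45 ± 0.22, edgeR adjusted p = 1.0). The IP libraries had 4.32, 3.47 and 3.31 CPM in Ctrl and 5.58, 6.4 and 3.99 in cKO mice, and the difference of 0.53 ± 0.20 (SE, edgeR adjusted p = 0.0872) did not pass. Input had 1.14, 0.667 and 1.03 CPM in Ctrl and 0.622, 2.13 and 1.69 in cKO mice, which overlapped.

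The interferon-inducible GTPases of the list moved in opposite directions on tagged ribosomes. Gbp2, a guanylate-binding protein, had 2.74, 2.83 and 2.69 CPM in Ctrl IP and 4.26, 6.17 and 4.58 in cKO IP, a log2 fold change of 0.86 ± 0.19 (SE, edgeR adjusted p = 0.00842). In P24 bulk cortex it had 0.953, 1.32, 1.5 and 1.38 CPM in Ctrl and 1.01, 4.2, 3.26 and 2.28 in cKO mice. Only replicate 1 of the cKO mice was inside the Ctrl range, the log2 fold change was 1.04 ± 0.37 (SE, edgeR adjusted p = 0.23), and without that mouse it was 1.32 (edgeR adjusted p = 0.00835). Iigp1, an immunity-related GTPase, fell in IP from 2.26, 1.43 and 1.56 to 0.724, 0.716 and 0.698 CPM, a log2 fold change of −1.28 ± 0.27 (SE, edgeR adjusted p = 0.00825). Its P24 bulk levels overlapped, with 0.44 to 1.74 CPM in Ctrl and 0.739 to 1.75 in cKO mice, and in Input it was too low to be tested (0.632, 0.334 and 0.359 in Ctrl, 0.178, 0.255 and 0.141 in cKO mice).

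Fbln5, an extracellular protein of elastic fibres, was the other downregulated member. The IP libraries had 1.43, 0.792 and 1.48 CPM in Ctrl and 0.213, 0.313 and 0.62 in cKO mice, for a log2 fold change of −1.65 ± 0.42 (SE, edgeR adjusted p = 0.0181), and without cKO replicate 2 it was −1.51 (edgeR adjusted p = 0.079). The call also ended without cKO replicate 1, Ctrl replicate 1 or Ctrl replicate 3 (edgeR adjusted p = 0.0593, 0.0627 and 0.0666). The pericyte and fibroblast marker Col1a1 also fell in IP (−1.25 ± 0.39, edgeR adjusted p = 0.0424), and the summed markers of those cells were 7.29 to 9.46 CPM in cKO and 9.44 to 14.2 CPM in Ctrl IP libraries, while in bulk cortex at P24 Fbln5 had 4.4, 4.92, 3.89 and 4.58 CPM in Ctrl and 4.1, 3.41, 4.78 and 3.06 in cKO mice. The part of those cells in the Fbln5 value was not tested. Ugt1a1, which conjugates bilirubin, had 1.5, 1.51 and 3.24 CPM in Ctrl IP and 3.83, 4.34 and 4.38 in cKO IP (1.01 ± 0.28, edgeR adjusted p = 0.0255), and the Ctrl library nearest to the cKO range was replicate 3. Leaving out any 1 of 4 of the 6 IP libraries ended this call, for example 1.00 (edgeR adjusted p = 0.0804) without cKO replicate 2. Of the 2224 exonic bases of Ugt1a1, 1311 are shared with other genes of the Ugt1a locus, so its reads may belong to those.

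The remaining A1 members were not called by edgeR's quasi-likelihood test in any comparison of cKO with Ctrl, though Amigo2 was called in IP under other settings. H2-D1 and H2-T23, class I major histocompatibility genes that present antigen, had log2 fold changes of −0.03 ± 0.21 and −0.01 ± 0.21 in P24 bulk cortex and −0.22 ± 0.18 and −0.27 ± 0.20 in IP. Genes of this family are near copies of each other, so that their counts are uncertain. The 95% interval of H2-D1 in IP was −0.62 to 0.19, which holds no rise as large as that of Gbp2. Psmb8, a subunit of the immunoproteasome, had 0.12 ± 0.39 and 0.04 ± 0.26 in the same 2 comparisons, and its Input value of 3.56 CPM in cKO replicate 1 lay above the other 5 Input libraries, at 1.2 to 1.91 CPM. Serping1, the inhibitor of the first complement component, had 0.08 ± 0.19 and −0.26 ± 0.37. Fkbp5, a co-chaperone of the glucocorticoid receptor whose gene is induced by glucocorticoids, had 41.6 to 57.6 CPM in Ctrl and 30.9 to 64.4 in cKO bulk cortex at P24, and −0.09 ± 0.22 in IP. Srgn, a proteoglycan of secretory granules in blood cells, had 0.11 ± 0.37 in IP. Amigo2, an adhesion protein with leucine-rich repeats, had 8.5, 12.3 and 12.3 CPM in Ctrl and 13.7, 14.4 and 22.5 in cKO IP, without overlap, and missed the threshold (0.62 ± 0.21, edgeR adjusted p = 0.0568). It was called there by DESeq2 (adjusted p = 0.0115), by the likelihood ratio test (0.0275), with at least 10 counts in every library (0.0433), without a filter (0.0023) and under a replicate block (0.00834).

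The A2 class had 2 called members in P24 bulk cortex and 6 in IP, all upregulated. Cd109 (ENSMUSG00000046186, chr9:78615546-78716253, plus strand) encodes a surface protein that binds transforming growth factor beta. Its P24 bulk CPM were 0.66, 1.98, 1.65 and 0.654 in Ctrl and 4.03, 9.99, 6.31 and 5.63 in cKO mice. The lowest cKO mouse was well above the highest Ctrl mouse, and the log2 fold change was 2.38 ± 0.36 (SE, edgeR adjusted p = 0.00513). At P17 Ctrl mice had 2.0, 2.3, 1.76 and 1.58 and cKO mice 3.29, 2.06, 2.47 and 1.66, which overlapped (0.29 ± 0.24, edgeR adjusted p = 1.0). In IP Cd109 went from 0.677, 0.453 and 0.78 to 1.92, 5.95 and 3.14 CPM, a log2 fold change of 2.52 ± 0.41 (SE, edgeR adjusted p = 0.00208). In Input it had 0.379, 0.334 and 0.359 CPM in Ctrl and 0.267, 1.23 and 0.494 in cKO mice and was not tested.

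Emp1 (ENSMUSG00000030208, chr6:135362545-135383173, plus strand) encodes a tetraspan membrane protein. Its P24 bulk CPM were 1.61, 0.954, 1.05 and 1.31 in Ctrl and 1.81, 5.79, 4.58 and 8.48 in cKO mice. Replicate 1 was just above the Ctrl range and the other cKO mice were far above it, for a log2 fold change of 2.05 ± 0.41 (SE, edgeR adjusted p = 0.0251). The call ended when any 1 of the mice other than cKO replicate 1 was left out (edgeR adjusted p = 0.0565 to 0.0933). At P17 the values were 1.05, 1.38, 1.76 and 1.02 in Ctrl and 2.08, 1.2, 2.57 and 2.8 in cKO mice, with overlap (0.74 ± 0.30, edgeR adjusted p = 1.0). In IP Emp1 rose from 1.35, 1.25 and 0.663 to 5.45, 8.1 and 7.41 CPM, a log2 fold change of 2.68 ± 0.26 (SE, edgeR adjusted p = 0.000135). Input went from 0.337, 0.278 and 0.103 to 1.02, 1.06 and 1.41 CPM, a difference of 2.24 ± 0.44 (SE, edgeR adjusted p = 0.223) that did not pass, with no overlap between the groups.

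Promoter windows from RefSeq were searched for 4 motifs. Of the members called in the same direction in P24 bulk cortex and IP, Emp1 had matches at 1 of its starts, the windows of S1pr3 and Osmr held none, and Cd109 had no entry in the table. The 250 bases before a RefSeq start of Emp1 are shown because they hold 4 motif matches, in capitals. They lie on GRCm38.p6 chr6:135362681-135362930, plus strand, inside the gene's annotated span in GENCODE.
Emp1: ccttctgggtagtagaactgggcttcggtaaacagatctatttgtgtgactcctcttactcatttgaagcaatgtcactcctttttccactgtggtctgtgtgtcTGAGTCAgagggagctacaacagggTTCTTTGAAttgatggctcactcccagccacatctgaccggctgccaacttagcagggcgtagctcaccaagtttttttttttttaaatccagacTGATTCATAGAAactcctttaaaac
The motifs, searched on both strands, were those of STAT proteins (TTCNNNGAA), of AP-1 (TGANTCA), of CCAAT/enhancer-binding proteins (TTGCNNAA) and the core of the interferon-stimulated response element (ISRE). The window has STAT matches that start at −120 and −22 from the start of transcription and AP-1 matches that start at −145 and −25, the last of which overlaps the second STAT match. Over all 32851 promoter windows of the table, 7.02% held the STAT motif, 6.75% AP-1, 9.56% that of CCAAT/enhancer-binding proteins and 2.98% the interferon element. Of the 29 members with a window, 5 had a STAT match, 5 AP-1, 7 the CCAAT/enhancer-binding protein motif and 6 the interferon element, where some members have several windows. A match is a string of letters and not a measured binding site.

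Clcf1 (ENSMUSG00000040663, chr19:4214238-4223490, plus strand) encodes a cytokine of the interleukin 6 family that signals through gp130, and with S100a10 it had the smallest adjusted p of the A2 class in IP. It went from 0.301, 0.415 and 0.741 CPM in Ctrl to 4.17, 5.14 and 5.0 in cKO IP, a log2 fold change of 3.30 ± 0.28 (SE, edgeR adjusted p = 6.01e-05). In bulk cortex at P24 Ctrl mice had 1.54, 1.61, 1.79 and 1.31 and cKO mice 1.55, 4.76, 5.62 and 9.4 CPM. Replicate 1 sat inside the Ctrl range, the log2 fold change of 1.76 ± 0.43 (SE, edgeR adjusted p = 0.0712) did not pass, and without that mouse it was 2.08 (edgeR adjusted p = 0.000248). At P17 the groups overlapped, with 1.13 to 2.12 CPM in Ctrl and 0.877 to 2.06 in cKO mice. Input also overlapped, with 1.39, 0.667 and 0.77 CPM in Ctrl and 0.889, 1.4 and 1.27 in cKO mice. Of the 3806 exonic bases of Clcf1, 311 are shared with an overlapping gene on the same strand.

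S100a10, the light chain partner of annexin A2, was the most abundant A2 member per exon length in IP. Its IP values were 31.4, 37 and 32 CPM in Ctrl and 116, 169.9 and 104 in cKO mice, for a log2 fold change of 1.96 ± 0.17 (SE, edgeR adjusted p = 5.82e-05). In P24 bulk cortex it had 6.23, 5.72, 7.03 and 6.25 CPM in Ctrl and 6.52, 12.6, 11.2 and 12.2 in cKO mice, again with replicate 1 inside the Ctrl range (0.75 ± 0.18, edgeR adjusted p = 0.0711), and 0.93 (edgeR adjusted p = 0.00016) without it. Input had 21.4, 21.3 and 21.6 CPM in Ctrl and 54.1, 26.3 and 23.9 in cKO mice, the first of which is the library that stood apart.

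Tgm1, a transglutaminase that cross-links proteins, had 0.263, 0.226 and 0.117 CPM in Ctrl IP and 1.45, 1.48 and 1.16 in cKO IP, a log2 fold change of 2.72 ± 0.36 (SE, edgeR adjusted p = 0.000784). The Ctrl values are close to the floor of 3 counts. In bulk cortex at P24 it had 0.586, 0.44, 1.05 and 0.436 CPM in Ctrl and 0.672, 1.9, 1.18 and 1.78 in cKO mice (1.12 ± 0.39, edgeR adjusted p = 0.218). Cd14, the lipopolysaccharide co-receptor that macrophages and microglia also make, had 0.714, 0.641 and 0.741 CPM in Ctrl IP and 1.62, 2.68 and 1.86 in cKO IP, a log2 fold change of 1.55 ± 0.28 (SE, edgeR adjusted p = 0.00331). In IP 1 of 7 microglia markers was upregulated and 6 of 7 were positive, the summed markers were 137 to 258 CPM in cKO and 127 to 149.7 CPM in Ctrl IP libraries, and replicate 2 held the highest sum. Summed markers of macrophages and neutrophils, of which 1 of 7 could be tested and 0 were called, were 5.82 to 7.51 CPM in cKO and 2.96 to 5.28 CPM in Ctrl IP libraries, and the part of either cell type in the Cd14 value was not tested. Without replicate 2 Cd14 was 1.33 (edgeR adjusted p = 0.0176). In P24 bulk cortex Cd14 had 1.47, 1.1, 0.972 and 0.727 CPM in Ctrl and 1.01, 1.43, 1.04 and 1.21 in cKO mice, which overlapped.

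The other A2 members were not called by edgeR's quasi-likelihood test in any comparison of cKO with Ctrl, though Sphk1 and Ptx3 passed in IP under some other settings. Ptx3, a secreted pentraxin of innate immunity, had 2.86, 2.94 and 2.77 CPM in Ctrl and 3.28, 4.25 and 4.46 in cKO IP, without overlap (0.49 ± 0.18, edgeR adjusted p = 0.0782). Sphk1, which makes sphingosine-1-phosphate, the ligand of S1pr3, had 2.78, 1.21 and 2.54 CPM in Ctrl IP and 3.28, 3.13 and 4.11 in cKO IP (0.70 ± 0.28, edgeR adjusted p = 0.0991). Sphk1 passed under a replicate block (0.74, edgeR adjusted p = 0.0352) and without a filter (0.038), and Ptx3 without IP cKO replicate 1 (0.65, edgeR adjusted p = 0.0329). Ptgs2, the inducible cyclooxygenase, had 0.12 ± 0.17 in P24 bulk cortex and 0.19 ± 0.29 in IP. Tm4sf1, a tetraspan surface protein, had 0.47 ± 0.18 and −0.16 ± 0.22. B3gnt5, a glycosyltransferase of glycolipid synthesis, had −0.11 ± 0.21 in IP, with 2.57 to 2.93 CPM in Ctrl and 1.9 to 3.04 in cKO mice. Slc10a6, a transporter of steroid sulfates, was at or under the floor of 3 counts in all 28 libraries and could not be tested.

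**Figure D3:**
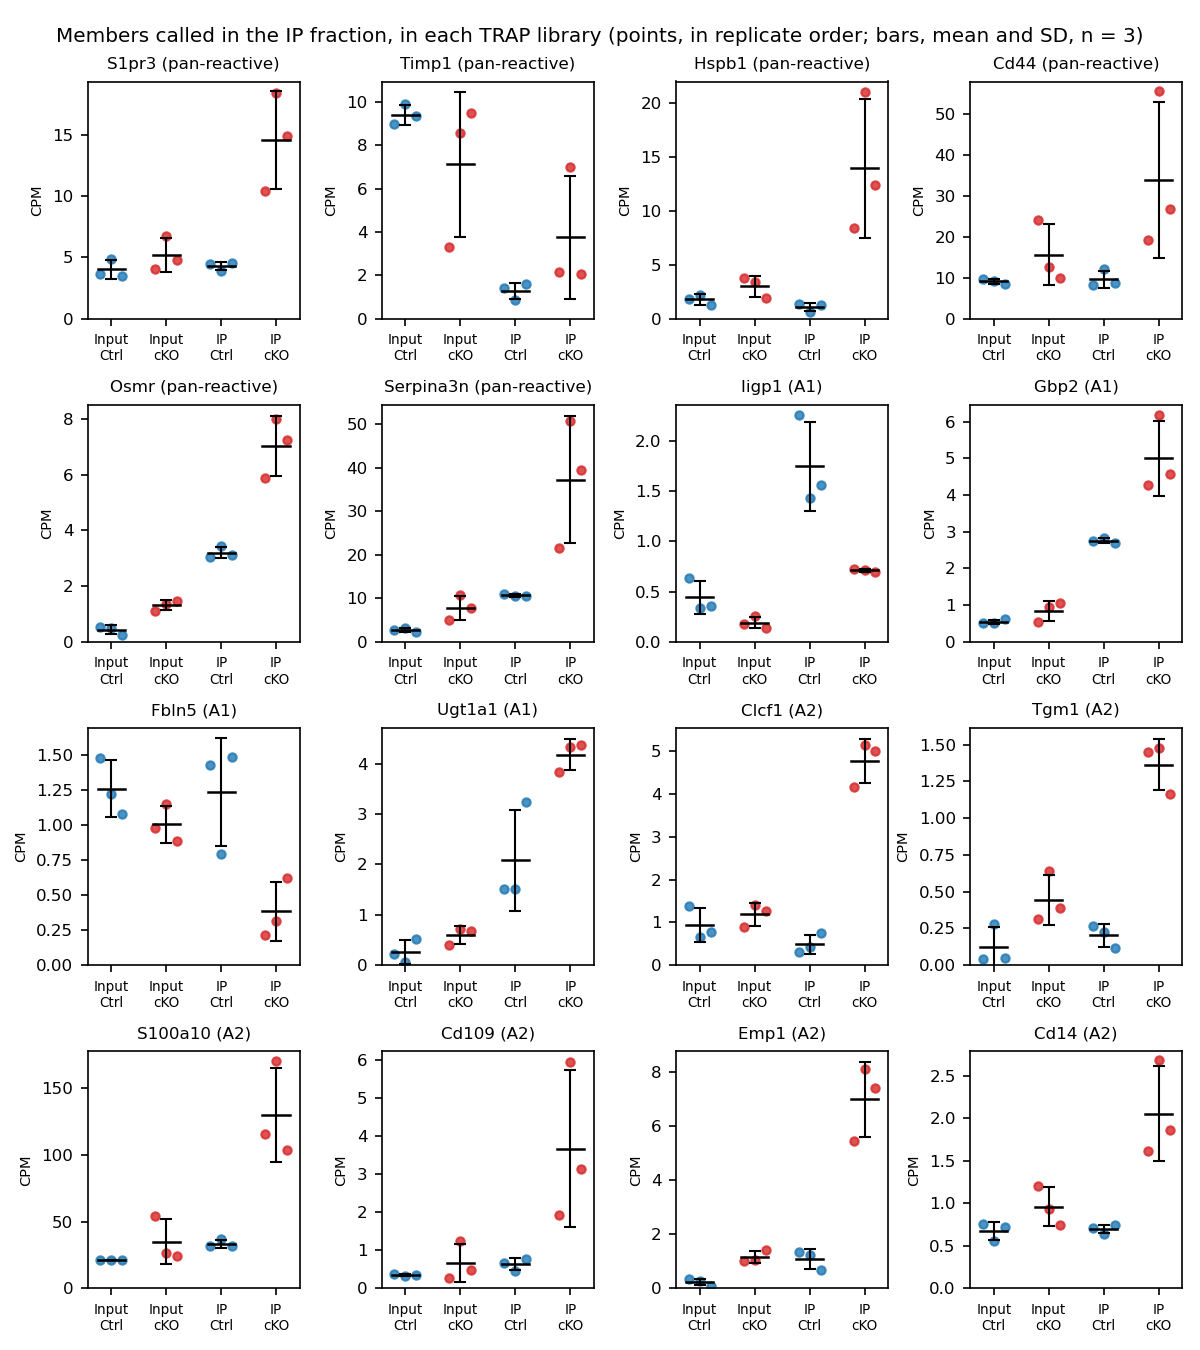
CPM (vertical axis, from 0) of the 16 members called in IP, in every TRAP-Seq library: Input Ctrl, Input cKO, IP Ctrl and IP cKO, with Ctrl in blue and cKO in red. Points are mice in replicate order and black bars the mean and SD (n = 3); the cKO IP points lie above the Ctrl IP points in 14 panels and below them for Iigp1 and Fbln5.

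The members were also counted mouse by mouse. The lowest cKO mouse exceeded the highest Ctrl mouse for 6 members in P24 bulk cortex, S1pr3, Osmr, Aspg, Ggta1, Cd109 and Emp1, while 4.25% of all genes tested did. In IP there were 18 such members, where 19.6% of all genes did, and in Input 7, where 6.65% of all genes did. The 18 were the 14 upregulated members with Aspg, Amigo2, Ptx3 and Sphk1, and the 7 were Cd44, Osmr, Serpina3n, Aspg, Amigo2, S100a10 and Emp1. At P17 the lowest cKO mouse exceeded the highest Ctrl mouse for 0 members. Every cKO mouse lay below every Ctrl mouse for Iigp1 and Fbln5 in IP, for Serpina3n at P17, and for 0 members in P24 bulk cortex and in Input. The share of all genes in that direction was not counted. Taken singly at P24, cKO replicate 1 exceeded all Ctrl mice in 11 of the 30 tested members, and replicates 2, 3 and 4 in 13, 15 and 16, where 23.4% to 24.4% of all genes did so in each mouse. Replicate 1 lay below all Ctrl mice in 4 members, where 21.4% of all genes did. The other cKO mice did so in 1 or 2, where 23.3% to 24.4% of all genes did. Without replicate 1, 10 members were upregulated: Aspg, Gbp2, Clcf1, Tgm1 and S100a10 joined the 5. Over all genes, 950 of 22820 were then called, against 388 of 22495 with all mice. Replicate 1 was set apart by its small rise of Vim, a gliosis gene, so these values are no independent support for a rise of the members. Without any 1 of the other 7 mice the count was 2 or 3, with Osmr and Cd109 called each time, and 216 to 272 calls over all genes.

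P24 bulk cortex and the IP fraction have no mouse in common, so their values can be set side by side. Their Ctrl mice differ, as the tag of the TRAP-Seq Ctrl mice needs Cre and the bulk Ctrl mice were given without the driver. Which floxed alleles the TRAP-Seq Ctrl mice had beside Cre is not stated, so the sizes of the effects may not share a baseline. Of the 29 members tested in both, 20 were higher in cKO mice in both, 5 lower in both and 4 differed in sign. All 8 pan-reactive members tested in both were higher in both, as were 7 of the 9 A2 members, whereas the 12 A1 members had 5 higher, 5 lower and 2 of differing sign. The log2 fold change was larger in size in IP for 22 of the 29. As a description across genes, which are not independent replicates, Pearson's r was 0.65 over the 29, −0.21 over the 8 pan-reactive, 0.77 over the 12 A1 and 0.78 over the 9 A2 members. S1pr3, Osmr, Cd109 and Emp1 were called in both experiments.

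**Figure D4:**
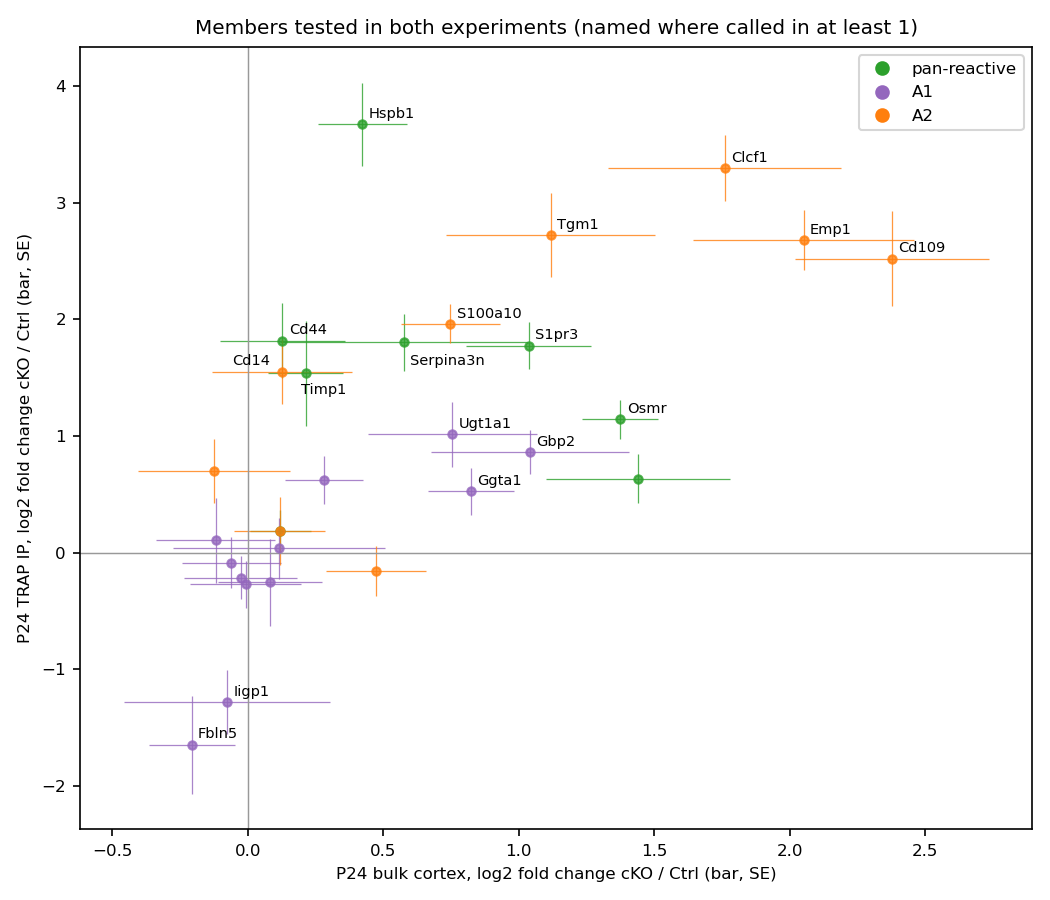
Log2 fold change of cKO against Ctrl in P24 bulk cortex (horizontal axis) and in TRAP-Seq IP (vertical axis) for the 29 members tested in both; bars are SE, colours are classes, and members called in at least 1 experiment are named. Clcf1, Tgm1, Cd109 and Emp1 (A2) and S1pr3 and Osmr (pan-reactive) lie in the upper right, Hspb1 is the highest in IP, Cd44 and Cd14 are high in IP and near 0 in bulk cortex, and Iigp1 and Fbln5 are low in IP.

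Whether the cKO effect differed between ages was tested directly over all 16 bulk libraries. edgeR's quasi-likelihood test called 0 of 31 tested members, where 0.0470% of all genes were called. There 8 members had an unadjusted p under 0.05. DESeq2 and the likelihood ratio test called 54 and 52 of 23395 genes, and each called 1 member, Cd109. Its P24 effect exceeded its P17 effect by 2.08 ± 0.50 on the log2 scale (edgeR adjusted p = 0.247), and under a replicate block within each age it passed (2.10, edgeR adjusted p = 0.011); same-numbered mice deviated together at P17 and not in every pair at P24. The same difference was 0.95 ± 0.29 for S1pr3, 1.83 ± 0.61 for Clcf1 and 1.47 ± 0.50 for Aspg, and 0.70 ± 0.28 for Osmr, none of which passed. Without P24 cKO replicate 1, Cd109, S1pr3 and Clcf1 passed, where 149 of 23529 genes did, against 11 of 23395 with all mice. That mouse had the smallest rise of Vim, so this fit is no independent support. The 8 members with an unadjusted p under 0.05 were all more positive at P24, and for the others neither a difference nor its absence is shown.

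Whether the effect differed between fractions was tested over all 12 TRAP-Seq libraries, and 1 member passed, where 0.0582% of all genes did. The IP effect of Clcf1 exceeded its Input effect by 2.98 ± 0.48 (SE, edgeR adjusted p = 0.0467). Each mouse gave both fractions, and in a fit with a replicate block for mice the value was 2.98 (edgeR adjusted p = 0.13), so that the call was lost. Hspb1 followed with 2.91 ± 0.54 (SE, edgeR adjusted p = 0.0884), S1pr3 with 1.39 ± 0.33 (SE, edgeR adjusted p = 0.158) and S100a10 with 1.26 ± 0.37 (SE, edgeR adjusted p = 0.267). Without Input cKO replicate 1, Clcf1, Hspb1 and S100a10 passed, whereas leaving out any 1 of the other 11 libraries ended the Clcf1 call (edgeR adjusted p = 0.0534 to 0.231), as did RLE factors (0.0561) and library size alone (0.0573). Over all genes, 432 of 26449 were called without Input cKO replicate 1, against 15 of 25768 with all libraries. All 9 markers of astrocytes that are not reactive were negative in the same test (median −0.82, 0 called), and the part of this shift in the members' values was not tested. Osmr had log2 fold changes of 1.15 in IP and 1.58 in Input, and their difference in this fit was −0.44 ± 0.35 with a 95% interval of −1.19 to 0.31.

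Where the members stand in the tagged ribosomes of Ctrl mice was read from IP against Input. Of the 35 members 14 were enriched and 5 depleted in IP (31 tested), where 35.3% and 35.7% of all genes tested were. The enriched members were Osmr, Serpina3n, Aspg, Ggta1, Iigp1, Gbp2, Ugt1a1, Psmb8, Amigo2, Ptx3, S100a10, Emp1, Tm4sf1 and B3gnt5. Ptx3 stood highest, from 0.169, 0.0556 and 0.359 CPM in Input to 2.86, 2.94 and 2.77 in IP (3.82 ± 0.37, edgeR adjusted p = 2.12e-06), followed by Ugt1a1 (2.96 ± 0.52), Tm4sf1 (2.85 ± 0.21) and Osmr (2.84 ± 0.28). Lcn2, Timp1, H2-T23, Fkbp5 and Ptgs2 were depleted, with Lcn2 at 1.14, 1.67 and 0.616 CPM in Input and 0.226, 0.151 and 0 in IP and a log2 difference of −2.88 ± 0.21 for Timp1. The call of H2-T23 (−0.45 ± 0.18, edgeR adjusted p = 0.045) was lost with RLE factors, library size alone, DESeq2, other filters, all TRAP-Seq libraries in 1 fit and without any 1 of the 6 libraries. S1pr3, Cd44, Fbln5 and Cd14 did not pass in Ctrl mice, with 0.08, 0.07, −0.05 and 0.02.

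In cKO mice 21 of 35 members were enriched and 4 depleted (33 tested), where 27.8% and 28.5% of all genes were. Hspb1, S1pr3, Cd44, Clcf1, Tgm1, Cd109 and Cd14 were enriched in IP here, with 2.21, 1.47, 1.12, 1.98, 1.58, 2.44 and 1.09 on the log2 scale, and Cxcl10 with 2.43. These IP libraries are the ones compared with Ctrl above, so the values are not independent of that comparison, and the test of the difference between genotypes is the one over all 12 libraries. Lcn2 (−1.23), H2-T23 (−0.92), Fbln5 (−1.37) and Ptgs2 (−0.93) were depleted. Under a replicate block for mice 26 members were called in cKO and 19 in Ctrl mice, against 25 and 19 without it. In cKO mice the block ended the call of Cd44 (1.08, edgeR adjusted p = 0.0538) and added Timp1 (−1.03, edgeR adjusted p = 0.0469) and Fkbp5 (−0.55, edgeR adjusted p = 0.0365) as depleted.

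Levels between genes were compared per kilobase of exon (RPKM). In Ctrl bulk cortex at P24 the order was led by Cd44 (16.7 ± 4.62 RPKM), Serpina3n (11.2 ± 7.61), H2-D1 (11.1 ± 2.54) and Timp1 (6.39 ± 1.10; mean ± SD, n = 4), of which the first 3 did not differ beyond their spread. On tagged ribosomes of Ctrl mice S100a10 led with 27.6 ± 2.55 RPKM, above Serpina3n (5.19 ± 0.148), Fkbp5 (4.49 ± 0.542) and H2-D1 (4.02 ± 0.540; mean ± SD, n = 3), and the last pair did not differ beyond their spread. In cKO IP libraries S100a10 had 107.1 ± 29.1 RPKM, Serpina3n 18.1 ± 7.12 and Hspb1 13.5 ± 6.24, and Hspb1 was not among the 10 highest members in Ctrl IP libraries.

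Gfap and Vim, the reference for gliosis, rose by 2.51 and 3.22 on the log2 scale in P24 bulk cortex and by 0.76 and 3.13 in IP. At P17 Gfap rose by 1.03, while Vim had 0.42 ± 0.12 (SE, edgeR adjusted p = 0.658). Among 34 cytokines, receptors and factors that act upstream of the members, 3 rose and 0 fell in P24 bulk cortex (27 tested), beside 1.26% and 0.462% of all genes. The 3 were Tnfrsf1a, the main receptor for tumour necrosis factor (1.14), Stat3 (0.52) and Cebpd (0.78). In IP 7 rose and 3 fell (29 tested), beside 11.6% and 8.42% of all genes, led by Cntf, a cytokine of the gp130 group made by astrocytes (1.89 ± 0.19, edgeR adjusted p = 0.000177), and including Lif (0.96), Socs3, the feedback inhibitor of STAT3 (1.03), and Cebpb (0.96), with Jak1, Jak2 and Nfkb1 lower. Of the 1073 exonic bases of Cntf, 847 are shared with Zfp91 on the same strand, so its reads may belong to that gene. Among 22 antigen presentation and interferon genes set beside the A1 members, Ifitm3 alone was called in P24 bulk cortex (1.49, 22 tested), where 1.26% of all genes rose and 0.462% fell. In IP 6 rose and 1 fell (21 tested), beside 11.6% and 8.42% of all genes, with Ifitm3 at 2.80 and the other 5 rises between 0.45 and 0.95.

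Markers of other cells did not pass the test in P24 bulk cortex: 0 of 7 microglia, 0 of 3 tested macrophage and neutrophil, 0 of 6 endothelial, 0 of 6 pericyte and fibroblast, 0 of 7 neuronal and 0 of 5 oligodendrocyte markers were called. The summed microglia markers were 374 to 502 CPM in cKO and 398 to 463 CPM in Ctrl mice. In IP, where 16 of 35 members were called, the meninges and choroid plexus marker Ptgds rose (0.82 ± 0.14, edgeR adjusted p = 0.00228; summed list 27.6 to 39.9 CPM in cKO and 19.5 to 21.4 CPM in Ctrl libraries), the neuronal marker Syp fell (−0.43 ± 0.09), and Slc1a2, Slc1a3 and Gjb6 fell among the 9 markers of astrocytes that are not reactive. Among the 9 markers of astrocytes that are not reactive, Aldh1l1, Aqp4 and Sox9 rose and Slc1a2, Slc1a3 and S100b fell in P24 bulk cortex, and the summed list was 3270 to 3636 CPM in cKO and 3674 to 4282 CPM in Ctrl mice. The part of these shifts in the members' values was not tested.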

How the data were processed

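Cortical RNA was sequenced in 28 libraries: 16 of bulk cortex (4 cKO and 4 Ctrl at each of P17 and P24) and 12 of TRAP-Seq (3 cKO and 3 Ctrl mice, Input and IP). The authors deposited 3 tables of raw read counts per Ensembl gene. Per the labels and the study's methods, bulk RNA was reverse-transcribed from oligo-dT primers, TRAP-Seq RNA was selected on oligo-dT beads, reads were mapped in Galaxy with RNA STAR to mm10, and differential expression was computed in edgeR; the counting tool, annotation and use of strand are not given in the sources used here. Antisense and overlapping genes therefore cannot be told apart. The age of each bulk table was read from the table's name and the labels.

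The counts were used as deposited. Genes were kept by edgeR's filterByExpr (minimum count 10), scaled by TMM and tested with edgeR 4.0.16 (glmQLFit and glmQLFTest, R 4.3.3) in each comparison's own libraries, with Benjamini–Hochberg adjustment over all genes tested; 95% intervals use the SE and edgeR's moderated degrees of freedom. CPM and RPKM were computed from the counts and the exon lengths of GENCODE M21. Alternatives were RLE factors, library size alone, the likelihood ratio test, DESeq2 1.42.0, no filter, at least 10 counts in every library, all libraries of an experiment in 1 fit, a replicate block, and leaving out each library. Scripts were tested on simulated counts. Promoter windows are from RefSeq (GRCm38.p6), of which 29 members had at least 1 and 6 none.

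Members named with all their values were those called in P24 bulk cortex or IP, and others were to be given by range; the library values of Aspg, Amigo2, Ptx3 and Sphk1 were added after they were seen. The members and the other lists were chosen with earlier results of these data known. Replicates are separate mice. No 2 libraries of a group agreed within counting error. The numbers of P17 mice paired (correlations of same-numbered deviations 0.321, 0.184, 0.380 and 0.167). A block for them left the count of called members between P17 cKO and Ctrl mice at 0, while calls over all genes went from 20 to 109. Input and IP are paired by mouse in the methods. The values of the deleted gene are not reported here.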

Additional observations from a re-analysis of the deposited data

Results flagged for a closer look

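In 121 groups of 4 bulk libraries, each a member with enough counts, 4 held 1 mouse far from the other 3 by Dixon's 95% limit, which chance alone does in about 1 of 20 groups. Steap4 had 0.926 CPM in P24 cKO replicate 4 and 0.269 to 0.347 CPM in the other cKO mice. B3gnt5 had 1.16 CPM in P24 Ctrl replicate 4 and 0.440 to 0.524 CPM in the other Ctrl mice. S1pr3 had 9.56 CPM in P17 cKO replicate 2, below the 10.7 to 10.9 CPM of its group. Sphk1 had 2.38 CPM in P17 Ctrl replicate 4, above the 1.65 to 1.75 CPM of its group.

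The effect of the deletion on Clcf1 differed between the IP and Input fractions by 2.98 on the log2 scale in the test over all 12 TRAP-Seq libraries, with all 3 cKO IP mice above all 3 Ctrl IP mice and overlapping groups in Input. The call was lost in a fit with a block for mice, with RLE factors, with library size alone and when any 1 of 11 of the 12 libraries was left out.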

How the results depend on the processing

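For the 66 member values called in the 8 comparisons, 915 alternatives gave an adjusted p, of which 831 kept the call, 84 lost it and 0 changed sign. In P24 bulk cortex the count of called members was 5 and became 8 under DESeq2, 8 under the likelihood ratio test, 8 without a filter and 8 with all bulk libraries in 1 fit, and it ran from 2 to 10 when 1 mouse was left out, where 10 is the count without cKO replicate 1. Calls over all genes went from 388 to 598, 619, 618 and 504 there, and were 216 to 950 with 1 mouse left out. Osmr was called in all 16 alternatives, Cd109 in the 15 in which it was tested (it failed the filter of 10 counts in every library), Ggta1 in 10 of 16, S1pr3 and Emp1 in 9 of 16 each. In Input the count of 0 became 2 under DESeq2, 3 under the likelihood ratio test, 2 without a filter and 2 with all TRAP-Seq libraries in 1 fit, and was 0 to 1 with 1 library left out (1, Serpina3n, without cKO replicate 1). Calls over all genes went from 26 to 127, 137, 112 and 127 there, and were 4 to 112 with 1 library left out.

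In IP the count of 16 ran from 13 to 20 over all alternatives. Calls over all genes were 4782 in the main fit and ran from 1684 to 6735, where 6735 is the count under a replicate block, with 20 members called. Where an alternative gave an adjusted p, the calls lost in at least 1 were those of Timp1, Ugt1a1 and Fbln5. Clcf1, Tgm1 and Fbln5 failed the filter of 10 counts in every library, and DESeq2 gave Tgm1 and Fbln5 no adjusted p. For IP against Input, the count fell with at least 10 counts required in every library, where fewer members are tested, from 19 to 10 in Ctrl and from 25 to 16 in cKO mice. Calls over all genes fell from 17304 to 15244 and from 13526 to 12255. The age by genotype count of 0 was 1 under DESeq2, 1 under the likelihood ratio test, 1 without a filter and 1 with the replicate block, and 0 to 3 with 1 mouse left out. Calls over all genes went from 11 to 54, 52, 62 and 55 there, and were 4 to 149 with 1 mouse left out. The fraction by genotype count of 1 was 0 with RLE factors, 0 with library size alone, 3 under DESeq2, 3 under the likelihood ratio test, 5 without a filter, 0 with at least 10 counts in every library and 0 with the replicate block, and 0 to 3 with 1 library left out. Calls over all genes went from 15 to 10, 12, 284, 219, 189, 20 and 6, in that order, and were 3 to 432 with 1 library left out. The cause of these moves was not tested. Correlations of same-numbered deviations were 0.0286 to 0.218 in P24 bulk cortex. There cKO replicates 1 and 3 correlated best with the Ctrl mouse of their own number, and replicates 2 and 4 did not. In IP the correlations were 0.0355 to 0.116, and each cKO replicate correlated best with its own number. With a replicate block the P24 count was 7, the IP count 20 and the Input count 0. Over all genes the block gave 410, 6735 and 8 calls, against 388, 4782 and 26 without it. Members under about 1 CPM, such as Tgm1 and Cd14, rest on few counts.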
